A study of Homo sapiens with 16 samples.

Results

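The 42 genes described here encode the proteins that take a human cell from G1 into S phase and copy its DNA. They were chosen by gene symbol. All 42 had 1 row each among the 17318 genes of the first expression table and among the 18168 genes of the second, and all 42 passed the filter on low values in both, at least 1 CPM (read count scaled to library size) in as many tumours as the smaller group had. The tumours grew in mouse brain from luciferase-marked U87, an established human glioblastoma line, and the nude hosts lack mature T cells. They were collected when each mouse was euthanized. In the first experiment the mice had received exosomes of MSC, as the labels name their source, that carried human MYC siRNA 1 (Myc1, n = 3) or scramble siRNA 1 (Scr1, n = 4). Doses of 1e9 exosomes in 100 µl were given retro-orbitally every 2 days, starting on day 28. In the second experiment the exosomes carried human MYC siRNA 2 (Myc2, n = 5) or scramble siRNA 2 (Scr2, n = 4), and the dosing is not given in the sources used here. All groups therefore carried the same U87 cells and received loaded exosomes. Each tumour came from its own mouse, and 1 cell line stands behind all of them.

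DNA is copied in stages, and the genes are described below by stage. In G1 the origin recognition complex (ORC), CDC6 and CDT1 place the ring of MCM2 to MCM7 proteins on DNA, while geminin (GMNN) blocks CDT1 once S phase has begun. At the start of S phase CDC45 and the GINS proteins join the ring and turn it into the working helicase, with the help of MCM10. Primase and the DNA polymerases then copy the strands, held to DNA by the clamp PCNA, which the RFC complex loads. The switch that opens the programme is the pathway of cyclin D with CDK4 and CDK6, and of cyclin E with CDK2: these kinases phosphorylate RB, which then releases the E2F factors that transcribe most of the genes named here. MYC is known to drive cells into S phase, in part by raising cyclins and E2F factors.

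E2F words were more frequent in the promoters of these genes than in promoters of genes in the tables at large. Promoters of RefSeq (build GRCh38.p14, 250 bases before to 50 bases after the gene start) were matched by symbol for 36 of the 42 genes, which gave 46 promoters, since some genes have several starts. MCM4, MCM5, CDK2, CCND1, CCNE2 and RPA2 had no entry. An E2F word (TTTCCCGC, TTTGGCGC, TTTCGCGC or TTTGCCGC on either strand) was present in 21 of the 46 promoters (45.7%), against 4.67% of 15190 promoters of genes in the tables and 3.31% of all 35116 promoters. The words can overlap each other on opposite strands, and a promoter was counted once. CCAAT was present in 26 of the 46 (56.5%, against 34.4% of promoters of genes in the tables) and CACGTG, the E-box that MYC binds, in 7 of the 46 (15.2%, against 9.07%). A match of letters is a description and not a bound site. The windows below show the E2F word of genes that recur in the results, 5′ to 3′ on the strand of the gene, with the word in capitals.
MCM2 (chr3:127598402-127598431, plus strand): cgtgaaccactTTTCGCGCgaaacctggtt
MCM6 (chr2:135876515-135876544, minus strand): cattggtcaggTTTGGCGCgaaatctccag
CDC6 (chr17:40287875-40287904, plus strand): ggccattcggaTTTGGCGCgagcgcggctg
CDT1 (chr16:88803743-88803772, plus strand): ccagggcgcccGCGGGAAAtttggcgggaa
GMNN (chr6:24775322-24775351, plus strand): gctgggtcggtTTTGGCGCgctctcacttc
GINS2 (chr16:85688967-85688996, minus strand): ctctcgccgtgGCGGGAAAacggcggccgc
RFC3 (chr13:33818083-33818112, plus strand): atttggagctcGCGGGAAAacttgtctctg
PCNA (chr20:5126663-5126692, minus strand): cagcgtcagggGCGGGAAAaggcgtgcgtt
E2F1 (chr20:33686387-33686416, minus strand): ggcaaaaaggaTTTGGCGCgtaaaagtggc
E2F2 (chr1:23531257-23531286, minus strand): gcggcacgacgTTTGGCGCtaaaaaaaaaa
The word shown began at different distances from the gene start, and some promoters hold further words. In MCM6 it began 90 bases before the start, in GMNN 80, in CDT1 35, in GINS2 31 bases before it, in RFC3 55, in PCNA 59, in E2F1 20 and in E2F2 42 bases before it, whereas in MCM2 it began 2 and in CDC6 7 bases after it. In GCGGGAAA the E2F word is read on the opposite strand.

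Several libraries and the siRNA target need a statement before the results. The tables hold quantile-normalized log2 CPM without library sizes. The spacing of their low values gave an estimate of them. Scr1 replicate 3 was the shallowest at about 3.36 M reads, where the rest of its experiment held 15.3 to 24.0 M. Scr2 replicate 4 held about 10.1 M, where the rest held 15.2 to 31.0 M. Scr2 replicates 1 and 4 also stood apart on the first principal component of the second experiment, at 63.4 and 94.4, against -47.6 to -2.74 for the other 7 tumours. On that of the first experiment Scr1 replicates 4 and 1 lay at 61.5 and 29.5. Myc1 replicate 3 and Scr1 replicate 3 lay at -44.7 and -36.5, and the remaining tumours at -8.95 to 4.25. MYC itself was at 38.1, 26.5 and 14.3 CPM in Myc1 tumours, against 21.2, 30.2, 50.7 and 108 CPM in Scr1 tumours (log2 difference -0.83, exact permutation p = 0.314). In tumours labelled Myc2 it was at 55.3, 57.5, 47.03, 72.1 and 42.3 CPM, against 40.2, 35.3, 47.1 and 25.9 CPM in those labelled Scr2 (log2 difference 0.57, exact permutation p = 0.0397, limma adjusted p = 0.370). The direction in the second experiment goes against the label, so its groups are named as labelled throughout. Of 10 U87 markers 9 were measured and 8 of these were abundant, among them VIM at 3682 to 6074 CPM, while COL4A2 was at 1.56 to 9.48 CPM. All 17318 rows of the first experiment and all 18168 of the second carried human gene identifiers, and 0 carried mouse ones. The marker sums that follow therefore cannot separate host cells from U87 cells. Astrocyte markers (7 of 9 measured) summed to 351 to 481 CPM in Myc1 tumours and 175 to 416 CPM in Scr1 tumours. They summed to 215 to 913 CPM in Myc2 tumours and 202 to 509.9 CPM in Scr2 tumours. Nearly all of it was GJA1, SLC1A3 and ALDOC, with GFAP at or below 3.11 CPM. Endothelial markers (6 of 10 measured in the first experiment and 7 in the second) summed to 10.8 to 25.0 CPM in Myc1 and 4.51 to 9.74 CPM in Scr1 tumours, and to 12.7 to 59.2 CPM in Myc2 and 9.94 to 29.5 CPM in Scr2 tumours. Across all 16 tumours, neuronal markers (5 of 10 measured) summed to 7.53 to 22.2 CPM, oligodendrocyte markers (3 of 9) to 106 to 197 CPM, nearly all of it CNP, and microglial markers (4 of 12 in each table) to 196 to 522 CPM, most of it CD68. Pericyte markers (8 of 8 and 7 of 8) summed to 202 to 489.7 CPM. The part of host cells, depth and separate libraries in the differences below was not tested beyond the values given without those libraries. In bulk tumours fewer cycling cells and less RNA of these genes per cell cannot be told apart.

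**Figure D1:**
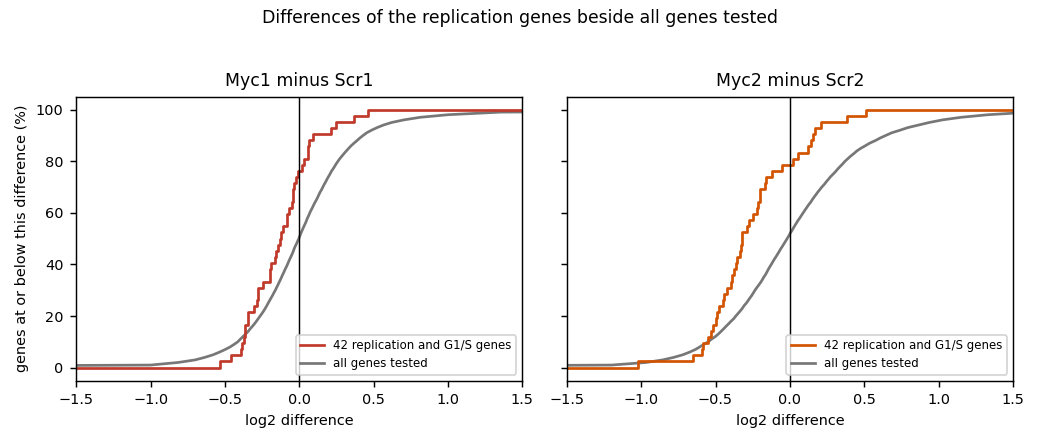
Share of genes (%, vertical axis) at or below each log2 difference (horizontal axis) for the 42 replication and G1/S genes (coloured steps) and all genes tested (grey line), Myc1 minus Scr1 on the left and Myc2 minus Scr2 on the right. The steps lie left of the grey line through the middle of both panels, with medians of -0.13 and -0.32 for the 42 genes, against -0.0028 and -0.018 for all genes.

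With siRNA 1, most of the replication genes lay slightly lower in Myc1 than in Scr1 tumours and none was called. The log2 difference was below 0 for 32 of the 42 genes (76.2%) and above 0 for 10, against 50.5% below 0 of the 13933 genes tested. Its median was -0.13, against -0.0028 over all genes, and it ran from -0.53 for MCM2 to 0.46 for CCNE1. By limma with Benjamini-Hochberg adjustment over all genes 0 of the 42 passed a threshold of 0.05 (0% of all genes passed), and the adjusted p was 0.996 or higher for each. At an unadjusted p under 0.05, 0 of the 42 were found in either direction, against 1.96% of all genes higher and 1.52% lower. None of the 42 had groups that did not overlap, against 2.27% of all genes with every Myc1 tumour lower and 1.94% with every one higher. These counts moved with single tumours. Without Scr1 replicate 3, the shallowest library, 37 of the 42 were below 0, the median was -0.30 and 9 genes were lower at an unadjusted p under 0.05, against 3.50% of all genes. Without Myc1 replicate 3 or without Scr1 replicate 1, 24 of the 42 were below 0, and the median was -0.015 and -0.036.

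With siRNA 2 most of the genes again lay below 0, with a median further from 0, and none was called. The log2 difference between Myc2 and Scr2 tumours was below 0 for 33 of the 42 genes (78.6%) and above 0 for 9, against 51.8% below 0 of the 14208 genes tested. The median was -0.32, against -0.018 over all genes, with GINS2 at -1.02 and CCND1 at 0.51 as the ends of the range. In limma 0 of the 42 passed the adjusted threshold (0% of all genes passed), with adjusted p between 0.370 and 0.967. At an unadjusted p under 0.05, 9 of the 42 were found (21.4%), against 13.4% of all genes. Of these, 8 were lower (19.05% of the 42), against 6.36% of all genes, and 1 was higher, against 995 of the 14208 genes. The 8 were RFC3, GINS2, PRIM1, MCM6, RPA2, CDC45, RFC5 and PCNA, and the 1 was CCND1. RFC3 was the 1 gene of the 42 whose groups did not overlap, against 1.61% of all genes with every Myc2 tumour lower and 1.40% with every one higher. These counts moved with single tumours. Without Scr2 replicate 4 the median was -0.18 and 1 gene was lower at an unadjusted p under 0.05, against 1.97% of all genes. Without Scr2 replicate 2, 15 genes were, against 14.0% of all genes, and without Scr2 replicates 1 and 4 together 3 were, against 1.47%, with a median of -0.21. Without Myc2 replicate 2 the count was 2, against 3.16% of all genes, and without Myc2 replicate 1 it was 3, against 4.09%.

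**Figure D2:**
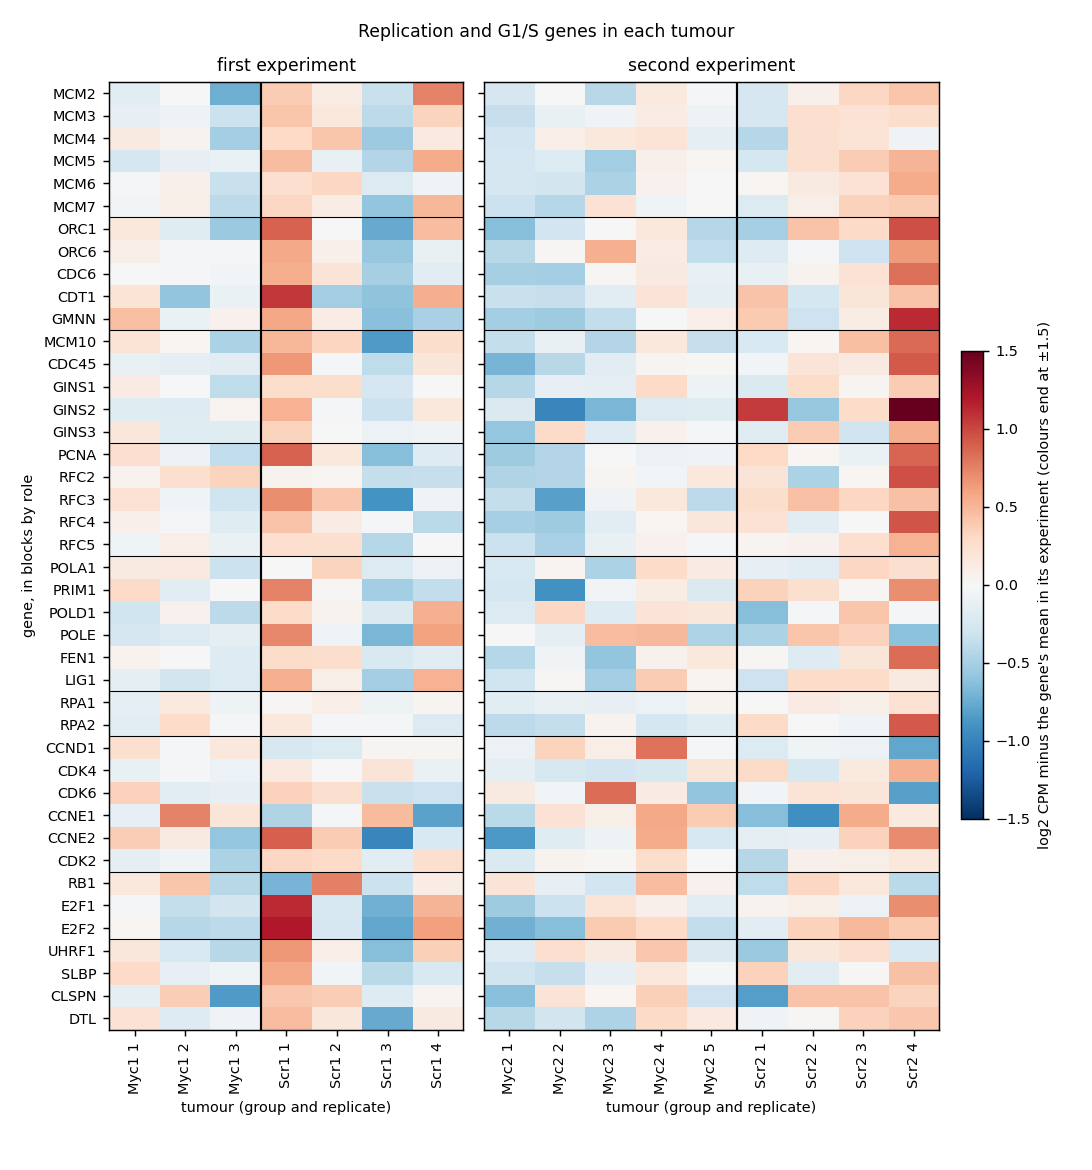
Each of the 42 genes (rows, in blocks by role) in each tumour (columns), as log2 CPM minus the gene's mean in its experiment, with red above and blue below the mean and colours ending at 1.5 in either direction. Scr1 replicates 1 and 3 are the reddest and bluest columns of the first experiment, and Scr2 replicate 4 is the reddest of the second.

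The highest and the lowest levels gathered in a few tumours, and in the first experiment both of these were scramble tumours. In the first experiment Scr1 replicate 1 held the highest level of 26 of the 42 genes (61.9%), against 15.2% of all genes, and Scr1 replicate 3 the lowest level of 27 (64.3%), against 16.4% of all genes. In the second experiment Scr2 replicate 4 held the highest level of 29 genes (69.0%), against 27.1% of all genes. The lowest levels lay in Myc2 replicates 1, 2 and 3, for 12, 10 and 9 genes, which is 28.6%, 23.8% and 21.4%, against 8.56%, 15.7% and 11.9% of all genes. Myc2 replicate 5 held no highest and no lowest level. The mean log2 CPM of the 42 genes was 6.23, 6.16 and 5.96 in Myc1 tumours, against 6.61, 6.30, 5.79 and 6.27 in Scr1 tumours. It was 5.91, 6.05, 6.17, 6.42 and 6.18 in Myc2 tumours, against 6.18, 6.31, 6.44 and 6.69 in Scr2 tumours. Both pairs of groups overlapped. Single genes moved with single tumours too: leaving out 1 tumour changed the log2 difference by more than 1.5 times, or turned its sign, for 37 of the 42 genes with siRNA 1 and for 29 with siRNA 2. A difference that starts near 0 passes this bound easily, and the count over all genes was not made. Within a group the median SD of the 42 genes was 0.22 log2 units in Myc1 and 0.44 in Scr1 tumours, and 0.29 in Myc2 and 0.35 in Scr2 tumours, against 0.29, 0.39, 0.30 and 0.42 over all genes in the same groups.

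**Figure D3:**
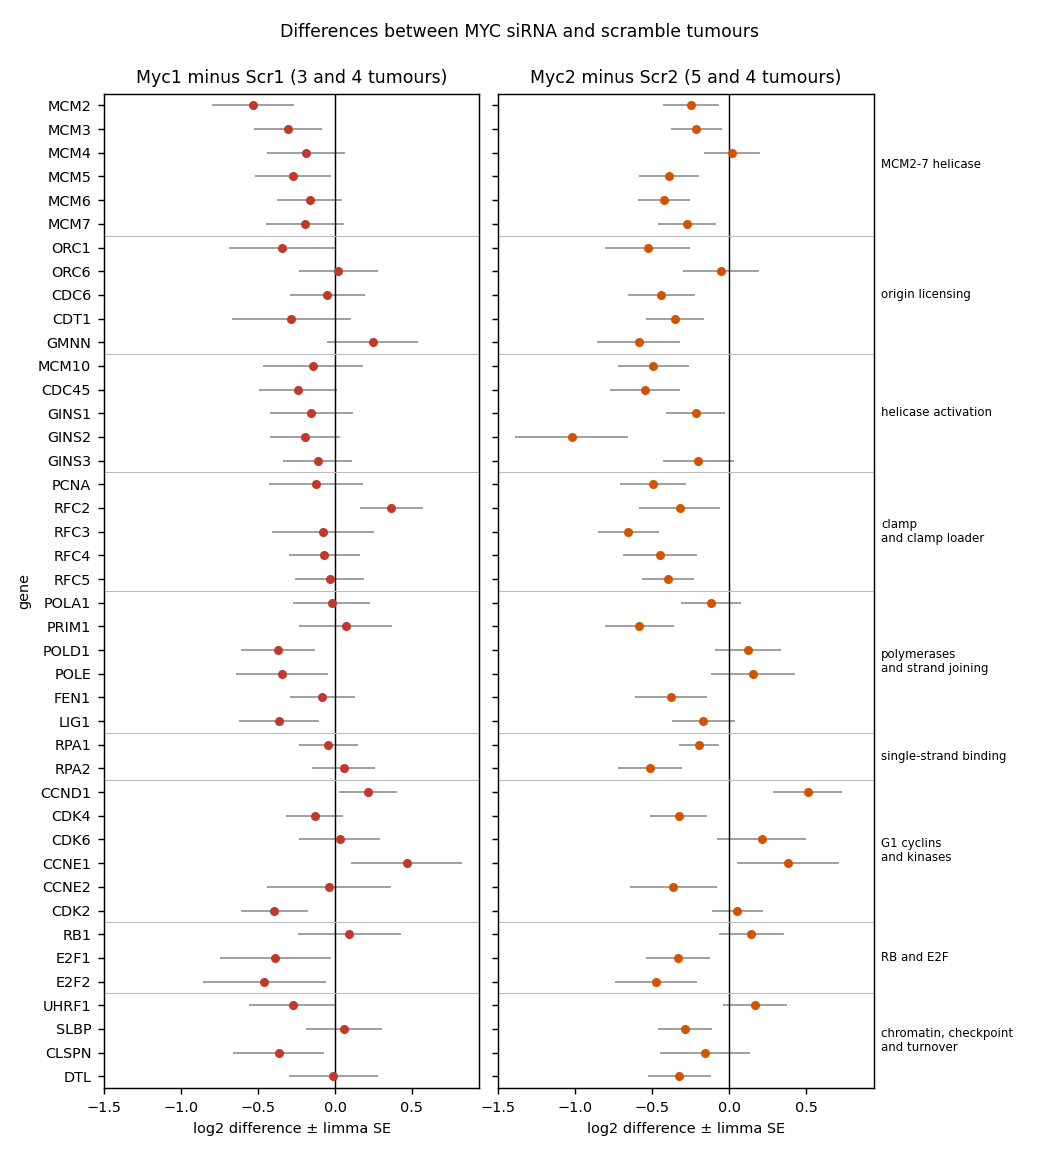
Log2 difference with limma's standard error (horizontal axis) of each of the 42 genes (rows, in blocks by role), Myc1 minus Scr1 on the left and Myc2 minus Scr2 on the right. In both panels most points lie left of 0, while CCND1 and CCNE1 lie right of 0 in both, at 0.22 and 0.46 with siRNA 1 and 0.51 and 0.38 with siRNA 2.

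The genes of the MCM2 to MCM7 ring lay below 0 nearly as a block, by small steps. Differences here and below are log2 differences, Myc minus Scr, and none of them passed the adjusted threshold. With siRNA 1 all 6 genes were below 0, with a median log2 difference of -0.23, and with siRNA 2 5 of the 6 were, with a median of -0.26. MCM2 was at 161, 179 and 109 CPM in Myc1 tumours, against 236, 195, 144 and 304 CPM in Scr1 tumours. Scr1 replicate 3 was the sole Scr1 tumour within the Myc1 range, and the other 3 lay above it. The difference was -0.53 ± 0.27 (SE; exact permutation p = 0.200), -0.72 without Scr1 replicate 3 and -0.32 without Myc1 replicate 3. For MCM2 the second experiment gave 134, 160.3, 119.5, 177 and 158 CPM in Myc2 tumours, against 134, 169, 198 and 213 CPM in Scr2 tumours, a difference of -0.25 ± 0.18 (SE; exact permutation p = 0.183), which was -0.38 without Scr2 replicate 1 and -0.15 without Scr2 replicate 4. Scr2 replicates 1 and 2 lay within the Myc2 range and replicates 3 and 4 above it. MCM6, whose promoter holds 4 E2F words that overlap in pairs, was at 159.9, 158, 138, 199 and 190.3 CPM in Myc2 tumours, against 195, 209, 222 and 281 CPM in Scr2 tumours. Myc2 replicate 4 exceeded Scr2 replicate 1, and no other Myc2 tumour reached a Scr2 tumour. The difference was -0.42 ± 0.17 (SE; exact permutation p = 0.0317). With siRNA 1 MCM6 was at 195, 208 and 157 CPM in Myc1 tumours, against 235, 245, 171 and 188 CPM in Scr1 tumours, a difference of -0.16 ± 0.21 (SE) with overlapping groups, -0.26 without Scr1 replicate 3 and -0.044 without Myc1 replicate 3. MCM3 was at 326, 335 and 282 CPM in Myc1 tumours, against 473, 396, 271 and 446 CPM in Scr1 tumours. Scr1 replicate 3 lay below every Myc1 tumour and the other 3 above every Myc1 tumour, and the difference of -0.31 ± 0.22 (SE) was -0.48 without that library. With siRNA 2 MCM3 was at 270.1, 318, 330.2, 371 and 326 CPM in Myc2 tumours, against 288, 408, 400.2 and 411 CPM in Scr2 tumours, a difference of -0.21 ± 0.17 (SE), and of -0.34 without Scr2 replicate 1. Here Scr2 replicate 1 lay within the Myc2 range and the other 3 above it. MCM5 and MCM7 gave differences of -0.28 and -0.19 with siRNA 1 and of -0.39 and -0.27 with siRNA 2. MCM4 gave differences of -0.19 with siRNA 1 and of 0.019 with siRNA 2.

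The licensing genes lay further below 0 with siRNA 2, a contrast that was not called for any of them. With siRNA 1, 3 of the 5 were below 0, with a median of -0.050, and with siRNA 2 all 5 were, with a median of -0.44. GMNN, the inhibitor of CDT1, was at 28.3, 27.9, 31.1, 40.2 and 43.2 CPM in Myc2 tumours, against 52.7, 32.4, 43.4 and 87.6 CPM in Scr2 tumours. Scr2 replicate 2 lay within the Myc2 range and the other 3 above it, replicate 3 by a narrow margin. The difference was -0.59 ± 0.27 (SE; exact permutation p = 0.0635), -0.32 without Scr2 replicate 4 and -0.16 without Scr2 replicates 1 and 4. With siRNA 1 GMNN had the opposite sign, at 57.3, 39.1 and 43.9 CPM in Myc1 tumours, against 62.9, 45.4, 27.1 and 29.9 CPM in Scr1 tumours, a difference of 0.24 ± 0.30 (SE; exact permutation p = 0.571), 0.069 without Scr1 replicate 3 and 0.47 without Scr1 replicate 1. CDT1 itself was at 49.2, 48.7, 55.6, 71.02 and 56.3 CPM in Myc2 tumours, against 83.7, 51.7, 70.7 and 83.8 CPM in Scr2 tumours, a difference of -0.35 ± 0.19 (SE; exact permutation p = 0.0952). In Myc1 tumours it was at 109, 63.1 and 88.3 CPM, against 198, 65.8, 62.6 and 139 CPM in Scr1 tumours, a difference of -0.28 ± 0.39 (SE), -0.52 without Scr1 replicate 3 and 0.029 without Scr1 replicate 1. The Scr1 tumours spread over a wide range that held all Myc1 tumours. CDC6, the loader of the MCM ring, was at 97.2, 96.1 and 94.9 CPM in the 3 Myc1 tumours, against 143, 112, 69.6 and 87.4 CPM in Scr1 tumours, a difference of -0.050 ± 0.24 (SE), -0.22 without Scr1 replicate 3 and 0.12 without Scr1 replicate 1. Its Myc1 values were the tightest of the 42 genes in that group. With siRNA 2 it was at 69.2, 68.3, 98.7, 107 and 90.1 CPM in Myc2 tumours, against 90.00, 101, 113 and 173 CPM in Scr2 tumours, a difference of -0.44 ± 0.22 (SE; exact permutation p = 0.119), and of -0.25 without Scr2 replicate 4. The ORC subunits ORC1 and ORC6 gave differences of -0.34 and 0.021 with siRNA 1, and of -0.53 and -0.054 with siRNA 2. With siRNA 2 ORC1 gave -0.79 without Scr2 replicate 1 and -0.31 without Scr2 replicate 4.

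Helicase activation was the block with the lowest member with siRNA 2, though not with siRNA 1. All 5 genes were below 0 in both experiments, with a median of -0.15 with siRNA 1 and -0.49 with siRNA 2. GINS2, a GINS subunit, was at 47.4, 28.01, 34.3, 47.9 and 48.7 CPM in Myc2 tumours, against 114, 37.1, 66.97 and 158 CPM in Scr2 tumours. The 5 Myc2 tumours lay below Scr2 replicates 1, 3 and 4, while Scr2 replicate 2 lay among them. The difference was -1.02 ± 0.37 (SE; 95% interval -1.83 to -0.22; exact permutation p = 0.0556), which is a ratio of 0.492. It was -0.71 without Scr2 replicate 4 and -0.31 without Scr2 replicates 1 and 4. In the first experiment GINS2 was at 73.4, 72.6 and 85.5 CPM in Myc1 tumours, against 119, 81.4, 66.8 and 93.1 CPM in Scr1 tumours, a difference of -0.20 ± 0.23 (SE) with overlapping groups, -0.33 without Scr1 replicate 3 and -0.050 without Scr1 replicate 1. CDC45, the partner of GINS in the helicase, was at 30.9, 37.5, 44.5, 51.1 and 50.3 CPM in Myc2 tumours, against 48.6, 57.1, 54.9 and 94.2 CPM in Scr2 tumours. Scr2 replicate 1 lay below Myc2 replicates 4 and 5, and the other Scr2 tumours lay above every Myc2 tumour. The difference was -0.55 ± 0.23 (SE; exact permutation p = 0.0476), and -0.34 without Scr2 replicate 4. With siRNA 1 it was at 42.6, 41.9 and 41.2 CPM in Myc1 tumours, against 72.3, 45.2, 35.4 and 52.1 CPM in Scr1 tumours, a difference of -0.24 ± 0.25 (SE), -0.40 without Scr1 replicate 3 and -0.060 without Scr1 replicate 1. Scr1 replicate 3 lay below the Myc1 tumours and the other 3 above them. MCM10, GINS1 and GINS3 gave differences of -0.14, -0.15 and -0.11 with siRNA 1, and of -0.49, -0.22 and -0.20 with siRNA 2. Without Scr2 replicate 4 the siRNA 2 differences of these 3 genes were -0.30, -0.13 and -0.057.

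**Figure D4:**
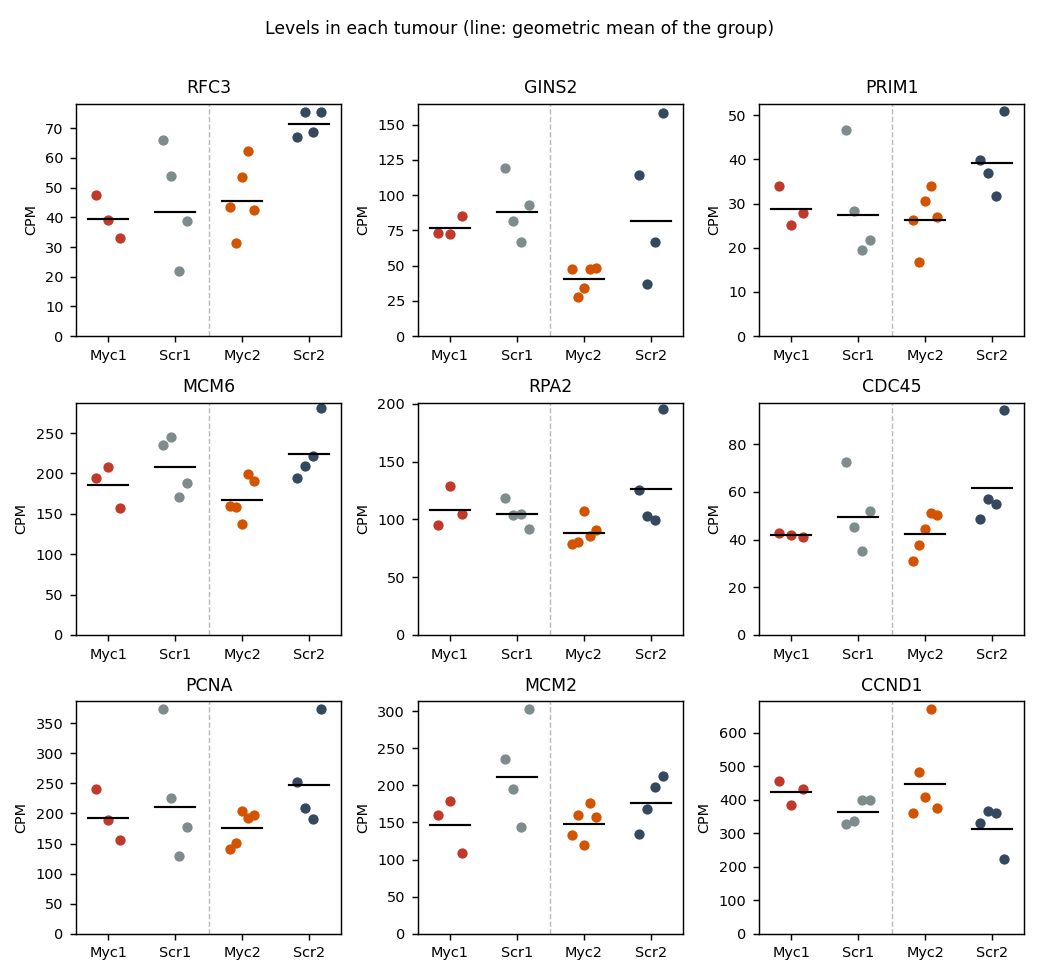
CPM (vertical axis, from 0) of 9 of the 42 genes in each tumour (points) with the geometric mean of the group (line), for Myc1, Scr1, Myc2 and Scr2. RFC3 separates Myc2 from Scr2 tumours (31.5 to 62.2 against 67.0 to 75.5 CPM), and the other 8 genes overlap in both experiments. Over all genes 1.61% had every Myc2 tumour below every Scr2 tumour.

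The clamp and its loader held RFC3, the 1 gene of the 42 whose groups did not overlap with siRNA 2. Over all genes 1.61% had every Myc2 tumour lower. All 5 genes were below 0 with siRNA 2, with a median of -0.45, while with siRNA 1 4 of the 5 were, with a median of -0.070. RFC3, a subunit of the clamp loader, was at 43.4, 31.5, 53.6, 62.2 and 42.5 CPM in Myc2 tumours, against 66.96, 75.4, 68.7 and 75.5 CPM in Scr2 tumours. Every Myc2 tumour lay below every Scr2 tumour, and the Scr2 tumours lay close together. The difference was -0.66 ± 0.20 (SE; 95% interval -1.08 to -0.23; exact permutation p = 0.0159; limma adjusted p = 0.370), and it stayed between -0.77 and -0.52 with any 1 tumour left out. With siRNA 1 RFC3 was at 47.4, 39.01 and 33.1 CPM in Myc1 tumours, against 66.2, 53.8, 21.9 and 38.8 CPM in Scr1 tumours, a difference of -0.081 ± 0.33 (SE). There the Scr1 tumours spanned the Myc1 tumours on both sides. PCNA, the clamp, was at 142, 151, 203, 193 and 197 CPM in Myc2 tumours, against 252, 209, 190.3 and 373 CPM in Scr2 tumours. Scr2 replicate 3 lay within the Myc2 range and replicate 4 far above the rest. The difference was -0.50 ± 0.22 (SE; exact permutation p = 0.0556), -0.30 without Scr2 replicate 4 and -0.19 without Scr2 replicates 1 and 4. With siRNA 1 PCNA was at 241, 189.6 and 156 CPM in Myc1 tumours, against 374, 226, 129.7 and 177 CPM in Scr1 tumours, a difference of -0.12 ± 0.31 (SE). RFC5, another loader subunit, was at 55.9, 49.9, 64.7, 73.02 and 68.1 CPM in Myc2 tumours, against 71.8, 73.00, 82.9 and 100.4 CPM in Scr2 tumours, and Myc2 replicate 4 alone reached the Scr2 range. The difference was -0.40 ± 0.17 (SE; exact permutation p = 0.0317) and -0.036 with siRNA 1. RFC2 ran the other way with siRNA 1, at 127, 145 and 155 CPM in Myc1 tumours, against 127, 125, 95.3 and 96.5 CPM in Scr1 tumours, a difference of 0.37 ± 0.21 (SE; exact permutation p = 0.143). The lowest Myc1 tumour and the highest Scr1 tumour were level, and Scr1 replicates 3 and 4 lay below both. With siRNA 2 RFC2 gave a difference of -0.32, and of 0.081 without Scr2 replicates 1 and 4. RFC4 gave differences of -0.070 with siRNA 1 and -0.45 with siRNA 2, and of -0.22 without Scr2 replicate 4.

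Among the polymerases and the enzymes that finish the strands, the 6 genes split. With siRNA 1, 5 of the 6 were below 0 (median -0.21), and with siRNA 2 4 of the 6 (median -0.14). PRIM1, the catalytic primase subunit, was at 26.2, 16.8, 30.5, 33.9 and 27.1 CPM in Myc2 tumours, against 39.9, 36.9, 31.7 and 50.9 CPM in Scr2 tumours. Scr2 replicate 3 lay below Myc2 replicate 4, and otherwise the groups were separate. The difference was -0.58 ± 0.23 (SE; exact permutation p = 0.0317). With siRNA 1 PRIM1 was at 33.99, 25.1 and 27.8 CPM in Myc1 tumours, against 46.7, 28.4, 19.6 and 21.7 CPM in Scr1 tumours, a difference of 0.069 ± 0.30 (SE). POLD1, the catalytic subunit of polymerase delta, was at 39.2, 50.3 and 36.7 CPM in Myc1 tumours, against 58.4, 50.1, 41.4 and 69.7 CPM in Scr1 tumours, with overlapping groups. The difference was -0.37 ± 0.24 (SE; exact permutation p = 0.171). With siRNA 2 POLD1 was at 46.5, 66.6, 46.98, 61.3 and 60.5 CPM in Myc2 tumours, against 34.5, 52.9, 71.9 and 52.5 CPM in Scr2 tumours, a difference of 0.12 ± 0.22 (SE), and -0.14 without Scr2 replicates 1 and 4. LIG1, which seals the nicks, was at 57.4, 52.8 and 55.2 CPM in Myc1 tumours, against 91.9, 67.5, 44.7 and 91.2 CPM in Scr1 tumours. POLE, the catalytic subunit of polymerase epsilon, was at 70.8, 73.00 and 76.6 CPM in Myc1 tumours, against 139, 81.1, 52.1 and 128 CPM in Scr1 tumours. For both genes Scr1 replicate 3 lay below all Myc1 tumours and the other 3 Scr1 tumours above all of them. LIG1 gave differences of -0.36 ± 0.26 (SE; exact permutation p = 0.286) and of -0.59 without Scr1 replicate 3, and -0.24 without Scr1 replicate 1. POLE gave differences of -0.34 ± 0.30 (SE; exact permutation p = 0.343) and of -0.62 without that library, and -0.15 without Scr1 replicate 1. With siRNA 2 the differences of LIG1 and POLE were -0.17 and 0.15, and POLE was at -0.31 without Scr2 replicates 1 and 4. POLA1, which extends the primers, and FEN1, which trims the flaps, gave differences of -0.022 and -0.083 with siRNA 1 and of -0.12 and -0.38 with siRNA 2, FEN1 being at -0.17 without Scr2 replicate 4.

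RPA coats single-stranded DNA at the fork. RPA2 was at 78.9, 80.4, 107, 85.9 and 91.1 CPM in Myc2 tumours, against 125.7, 103, 99.4 and 195 CPM in Scr2 tumours. Myc2 replicate 3 exceeded Scr2 replicates 2 and 3, and the other 4 Myc2 tumours lay below all Scr2 tumours. The difference was -0.52 ± 0.21 (SE; exact permutation p = 0.0317), -0.31 without Scr2 replicate 4 and -0.20 without Scr2 replicates 1 and 4. With siRNA 1 RPA2 was at 94.98, 129 and 104 CPM in Myc1 tumours, against 119, 104, 105 and 92.05 CPM in Scr1 tumours, a difference of 0.056 ± 0.20 (SE). RPA1, the large subunit, was at 128, 133, 133, 136 and 149 CPM in Myc2 tumours, against 144, 157, 154 and 169 CPM in Scr2 tumours. Myc2 replicate 5 alone reached the Scr2 range. RPA1 gave differences of -0.20 ± 0.13 (SE; exact permutation p = 0.0238), with a limma adjusted p of 0.446, and of -0.044 with siRNA 1.

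The G1 cyclins and their kinases lay on both sides of 0. With siRNA 1, 3 of the 6 were below 0 (median -0.0054), and with siRNA 2 2 of the 6 (median 0.13). CCND1, the cyclin that starts the G1 programme, was at 456, 383 and 432 CPM in Myc1 tumours, against 327, 336, 398 and 400.0 CPM in Scr1 tumours. Myc1 replicate 2 lay below Scr1 replicates 3 and 4, and the other Myc1 tumours lay above all Scr1 tumours. The difference was 0.22 ± 0.19 (SE; exact permutation p = 0.171). In the second experiment CCND1 was at 361, 482, 409, 670.5 and 374 CPM in Myc2 tumours, against 331, 366, 361 and 222 CPM in Scr2 tumours. Myc2 replicate 1 lay within the Scr2 range and the other 4 above it. The difference was 0.51 ± 0.23 (SE; exact permutation p = 0.0556), and 0.34 without Scr2 replicate 4. CCNE1, which activates CDK2, was at 7.65, 13.9 and 9.41 CPM in Myc1 tumours, against 6.08, 8.18, 11.6 and 4.78 CPM in Scr1 tumours, a difference of 0.46 ± 0.36 (SE; exact permutation p = 0.257), and of 0.23 without Myc1 replicate 2. With siRNA 2 CCNE1 was at 6.22, 9.56, 8.75, 12.2 and 10.7 CPM in Myc2 tumours, against 5.27, 4.34, 12.1 and 9.13 CPM in Scr2 tumours, a difference of 0.38 ± 0.33 (SE; exact permutation p = 0.294), 0.15 without Scr2 replicate 2 and 0.64 without Scr2 replicate 3. Both comparisons overlapped broadly. CCNE2, the other E-type cyclin, gave differences of -0.042 and -0.36 with siRNA 1 and siRNA 2, the second being -0.19 without Myc2 replicate 1. CDK2 was at 69.7, 73.3 and 54.98 CPM in Myc1 tumours, against 95.1, 93.4, 67.8 and 91.1 CPM in Scr1 tumours. Scr1 replicate 3 lay within the Myc1 range and the other 3 above it, close to each other. CDK2 gave differences of -0.39 ± 0.22 (SE; exact permutation p = 0.114), -0.51 without Scr1 replicate 3, and of 0.053 with siRNA 2. CDK4 was at 282, 265, 257, 264 and 356 CPM in Myc2 tumours, against 381, 265, 346 and 454 CPM in Scr2 tumours, a difference of -0.33 ± 0.19 (SE; exact permutation p = 0.0952), -0.21 without Scr2 replicate 4, and it gave -0.13 with siRNA 1. CDK6, which shares the D cyclins with CDK4, gave differences of 0.031 and 0.21. Without Scr2 replicates 1 and 4 the siRNA 2 differences of CDK2 and CDK6 were -0.053 and -0.098.

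RB and the E2F factors act downstream of these kinases, and the activating E2F genes lay below 0 in both experiments. E2F1, an activating E2F with an E2F word in its own promoter, was at 162, 129 and 136 CPM in Myc1 tumours, against 358, 139.8, 100.3 and 236 CPM in Scr1 tumours. The Scr1 tumours spanned a wide range that held all Myc1 tumours. The difference was -0.39 ± 0.36 (SE; exact permutation p = 0.457), -0.072 without Scr1 replicate 1 and -0.68 without Scr1 replicate 3. In the second experiment E2F1 was at 94.97, 110.1, 158, 145 and 122 CPM in Myc2 tumours, against 142, 145, 129 and 221 CPM in Scr2 tumours, a difference of -0.33 ± 0.21 (SE; exact permutation p = 0.167), and of -0.16 without Scr2 replicate 4. E2F2 was at 26.1, 18.9 and 19.4 CPM in Myc1 tumours, against 58.6, 21.4, 14.9 and 39.1 CPM in Scr1 tumours, a difference of -0.46 ± 0.40 (SE; exact permutation p = 0.457), -0.78 without Scr1 replicate 3 and -0.13 without Scr1 replicate 1. Its SD of 0.88 log2 units was the widest of the 42 genes in Scr1 tumours. With siRNA 2 E2F2 was at 16.2, 17.1, 34.98, 32.5 and 20.6 CPM in Myc2 tumours, against 23.8, 33.9, 37.4 and 35.1 CPM in Scr2 tumours, a difference of -0.48 ± 0.27 (SE; exact permutation p = 0.135). RB1, the brake on E2F, was at 32.04, 38.2 and 21.5 CPM in Myc1 tumours, against 17.7, 48.2, 22.9 and 30.97 CPM in Scr1 tumours, and at 52.02, 41.9, 37.4, 63.1 and 47.9 CPM in Myc2 tumours, against 35.2, 56.4, 50.8 and 34.6 CPM in Scr2 tumours. Its differences were 0.093 ± 0.33 and 0.14 ± 0.21 (SE), with overlapping groups in both experiments.

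The remaining 4 genes act around the fork. CLSPN, the checkpoint adaptor claspin, was at 26.5, 37.8 and 16.2 CPM in Myc1 tumours, against 38.9, 37.8, 25.6 and 30.2 CPM in Scr1 tumours, a difference of -0.37 ± 0.30 (SE; exact permutation p = 0.400), -0.66 without Myc1 replicate 2 and -0.045 without Myc1 replicate 3. It was at 25.5, 45.1, 40.2, 50.3 and 31.8 CPM in Myc2 tumours, against 22.1, 52.7, 52.8 and 49.4 CPM in Scr2 tumours, a difference of -0.16 ± 0.29 (SE). Scr2 replicate 1 was the lowest of all 9 tumours there, and without it the difference was -0.46. UHRF1, which recognises hemimethylated DNA behind the fork, gave differences of -0.28 with siRNA 1 and of 0.17 with siRNA 2. With siRNA 1 UHRF1 gave -0.53 without Scr1 replicate 3 and -0.097 without Scr1 replicate 1. SLBP, which binds histone mRNA, gave differences of 0.059 and -0.29, and DTL, which directs the destruction of CDT1 in S phase, of -0.011 and -0.32.

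The genes were also set out by the E2F word in their promoters, as a description. With siRNA 1 the difference was below 0 for 19 of the 20 genes with a word (median -0.19) and for 9 of the 16 without (median -0.040). Over all genes 50.5% were below 0. The siRNA 1 counts moved with 1 tumour. Without Scr1 replicate 1, CDC6 (0.12), CDT1 (0.029), DTL (0.14), PCNA (0.15) and RFC3 (0.14), all with a word, turned above 0. Of the genes without a word MCM10, RFC4 and RFC5 turned above 0 and RB1 below. With siRNA 2 the difference was below 0 for 18 of the 20 (median -0.30) and for 12 of the 16 (median -0.33), against 51.8% of all genes. For the E-box the medians were -0.083 over 7 genes with it and -0.14 over 29 without it with siRNA 1, and -0.27 and -0.32 with siRNA 2.

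Across both experiments 27 of the 42 genes were below 0 with both siRNAs and 4 were above 0 with both, namely CCND1, CCNE1, CDK6 and RB1. Of the others, 6 were above 0 with siRNA 1 and below 0 with siRNA 2, and 5 the reverse. The experiments share no tumours. The same count over all genes was not made. With 32 and 33 of the 42 genes below 0 in the single experiments, most had to lie below 0 in both. The count of 27 therefore does not show that the siRNAs acted alike. In a fit over the 4 groups the mean of the siRNA 1 and siRNA 2 differences was below 0 for 37 genes and above 0 for 5, with a median of -0.23, against 52.5% below 0 of 14891 genes. By limma 0 of the 42 passed at an adjusted p of 0.05 (0% of all genes passed), and the smallest adjusted p was 0.628. At an unadjusted p under 0.05, 4 genes had a mean below 0, against 3.89% of all genes, and 1 had a mean above 0, against 4.04%. GINS2 had a mean of -0.61 ± 0.24, CDC45 of -0.40 ± 0.17, MCM2 of -0.39 ± 0.17, MCM6 of -0.29 ± 0.13 and CCND1 of 0.36 ± 0.15 (SE). The difference between the siRNA effects was called for 0 of the 42 genes (0% of all genes), with a smallest adjusted p of 0.532. At an unadjusted p under 0.05 it also found 0 of the 42, against 8.74% of all genes. It was 0.83 ± 0.43 for GMNN, 0.83 ± 0.48 for GINS2, 0.69 ± 0.35 for RFC2 and 0.57 ± 0.29 for RPA2 (SE), each higher with siRNA 1, and errors of this size do not show that the siRNAs acted alike.

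**Figure D5:**
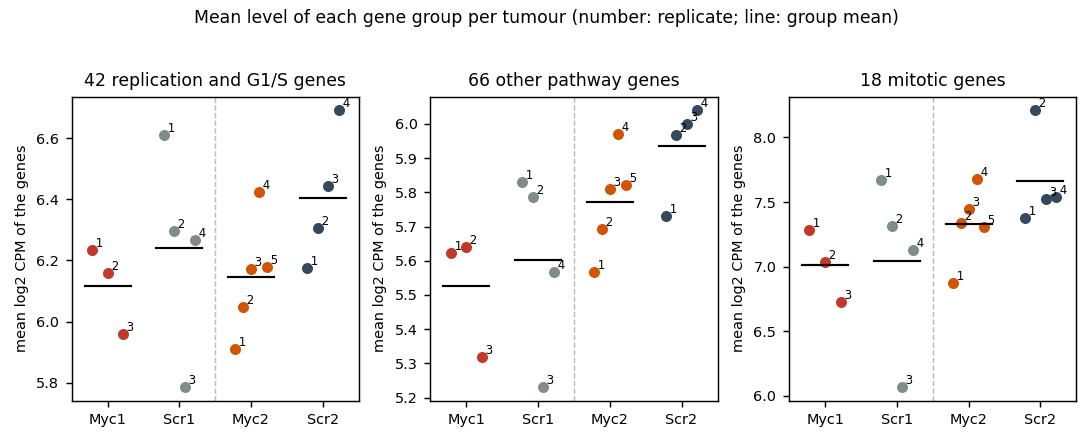
Mean log2 CPM per tumour (vertical axis, not from 0; points with replicate numbers, line at the group mean) of the 42 replication and G1/S genes, of 66 other genes of the same pathways and of 18 mitotic genes, for Myc1, Scr1, Myc2 and Scr2. The groups overlap in every panel, Scr1 replicate 3 is the lowest tumour of its experiment in each, and Scr2 replicate 4 is the highest for the first 2 sets but not for the mitotic genes, where Scr2 replicate 2 is.

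Other genes of the same pathways, from a list made with earlier results of these data known, lay more often below than above 0. Of 66 tested with siRNA 1, 42 were below 0 (63.6%, against 50.5% of all genes), with a median of -0.093. At an unadjusted p under 0.05 1 was lower and 1 higher, against 1.52% and 1.96% of all genes. DNMT1, the maintenance methyltransferase, gave a difference of -0.55 ± 0.26, RPA3 of 0.57 ± 0.26, and the E2F partners TFDP2 and TFDP1 of -0.51 ± 0.29 and -0.39 ± 0.22 (SE). Of 65 tested with siRNA 2, 45 were below 0 (69.2%, against 51.8% of all genes), with a median of -0.21, and 0 were called in either experiment. At an unadjusted p under 0.05 11 were lower and 2 higher, against 6.36% of all genes lower and 995 of the 14208 genes higher. TK1, the S phase thymidine kinase, was at 136, 153, 152, 174 and 171 CPM in Myc2 tumours, against 223, 244, 221 and 353 CPM in Scr2 tumours. The groups did not overlap, and the difference was -0.71 ± 0.18 (SE). Of the 65 genes, 4 had every Myc2 tumour lower and 0 had every one higher, against 1.61% and 1.40% of all genes. Differences with tumours left out were not computed for genes of this list. The repressor E2F6 gave a difference of -0.63 ± 0.18, also without overlap, cyclin A2 (CCNA2) of -0.70 ± 0.21 and the polymerase epsilon subunit POLE2 of -0.78 ± 0.26 (SE).

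Of the genes that hold cells in G1, 7 were tested in each experiment. With siRNA 1, 5 of the 7 were above 0, with a median of 0.30, and with siRNA 2 3 of the 7 were, with a median of -0.076, and none was called. CDKN1A, the p21 inhibitor of CDK2, was at 159.9, 253 and 161 CPM in Myc1 tumours, against 203, 146, 248 and 249 CPM in Scr1 tumours, and gave differences of -0.15 and -0.15 with siRNA 1 and siRNA 2. CDKN1B, the p27 inhibitor, gave differences of 0.14 and 0.068, and CDKN2D, an inhibitor of CDK4 and CDK6, of -0.0060 and -0.61. CDKN3, a phosphatase that acts on CDK2, was at 118, 132, 123, 166 and 152 CPM in Myc2 tumours, against 303, 214, 177 and 376 CPM in Scr2 tumours. Its groups did not overlap, with a difference of -0.90 ± 0.22 (SE; exact permutation p = 0.00794, the smallest possible), while with siRNA 1 it gave 0.30. It was the 1 gene of the 7 without overlap, against 1.61% of all genes with every Myc2 tumour lower. The smallest limma adjusted p of the 7 with siRNA 2 was 0.370, and differences with tumours left out were not computed for them. The growth-restraining BTG1, BTG2 and CCNG2 gave differences of 0.46, 0.40 and 0.36 with siRNA 1 and of 0.43, -0.076 and 0.47 with siRNA 2. CDKN1C had no measured value in the first experiment and was below the filter in the second. CDKN2A, CDKN2B, CDKN2C and MTAP had no measured value in either experiment.

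Mitotic genes were set beside the replication genes. Of 18, 9 were below 0 with siRNA 1 (median -0.013) and 17 with siRNA 2 (median -0.31), against 50.5% and 51.8% of all genes. With siRNA 2, 5 were lower at an unadjusted p under 0.05, against 6.36% of all genes, and 0 were called. CCNB1, the cyclin of mitotic entry, gave a difference of -0.58 ± 0.17, CCNB2 of -0.72 ± 0.22, the survivin gene BIRC5 of -0.68 ± 0.20 and the mitotic exit factor CDC20 of -0.51 ± 0.19 in the second experiment (SE). With siRNA 1 CCNB1 gave a difference of 0.30 ± 0.27 (SE). The mean log2 CPM of the 18 genes was 7.28, 7.03 and 6.72 in Myc1 tumours, against 7.67, 7.31, 6.07 and 7.13 in Scr1 tumours. It was 6.87, 7.34, 7.45, 7.68 and 7.31 in Myc2 tumours, against 7.37, 8.21, 7.52 and 7.54 in Scr2 tumours.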

How the data were processed

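RNA was sequenced from 16 tumours, 1 library a mouse, on an Illumina NextSeq, per the labels' protocols. The authors deposited quantile-normalized log2 CPM (read counts scaled to library size), 1 table an experiment; the submitters' processing notes name bcl2fastq 2.20.0, STAR 2.6.0b, Picard and the builds hg19 and mm10, while neither the counting tool nor any separation of mouse reads is given there. Quantile normalization gives every library of a table the same distribution, so a shift of all genes cannot be seen. The values were used as deposited, since they already were log2, in limma 3.58.1 (R 4.3.3; trend and robust settings) within each table, for genes at 1 CPM or more in as many tumours as the smaller group held. P-values were adjusted by Benjamini-Hochberg over all genes tested, with a threshold of 0.05, and exact permutation p-values are two-sided over 35 arrangements with siRNA 1 and 126 with siRNA 2. A joint fit over the 4 groups gave the mean and the difference of the effects, each taken within its table. Replicate numbers follow accession order and pair nothing. P-values measure the spread between mice. Library sizes were estimated, since the files give no counts, so no counting interval is given. The fitting steps were run on simulated data in which genes were drawn independently of each other, so shifts shared by many genes were not covered. Values of every tumour are given for the 10 genes with the smallest limma p in each experiment, genes whose groups do not overlap and genes of each role, with up to 4 genes named from each pathway list and experiment and every measured CDK inhibitor. The genes, lists and rules were chosen with earlier results of these data known. Alternatives were the added constant (1 and 0.1 CPM), the filter (none, 5 CPM), the variance model, sample weights and tumours left out. Promoters came from RefSeq, and figures were drawn with matplotlib 3.10.9 in Python 3.11.15.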

Additional observations from a re-analysis of the deposited data

Results flagged for a closer look

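Among 129 groups of 4 or 5 tumours tested, 5 held a tumour whose gap to the others was above Dixon's critical value, and chance gives about 1 in 20 groups. MCM3 was lowest in Scr2 replicate 1, at 288 CPM, against 400.2 to 411 CPM in the other Scr2 tumours. CDK2 was lowest in Scr1 replicate 3, at 67.8 CPM, against 91.1 to 95.1 CPM in the other Scr1 tumours. CDK2 was also lowest in Scr2 replicate 1, at 67.1 CPM, against 94.5 to 99.98 CPM in the other Scr2 tumours. CLSPN was lowest in the same tumour, at 22.1 CPM, against 49.4 to 52.8 CPM in the others of its group. CDK4 was highest in Myc2 replicate 5, at 356 CPM, against 257 to 282 CPM in the other Myc2 tumours. The 5 found in 129 groups do not exceed the 1 in 20 given by chance. Scr2 replicate 1 and Scr1 replicate 3 account for 4 of the 5, and Scr1 replicate 3 was the shallowest library of the first experiment. Scr2 replicate 1 stood apart on the first principal component of the second experiment, at 63.4. Scr2 replicate 4 lay further out, at 94.4, and is not among the 5.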

How the results depend on the processing

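None of the 42 genes was called in any setting. The medians stayed below 0, at -0.30 to -0.015 with siRNA 1 and -0.38 to -0.18 with siRNA 2. They were taken in every setting but the joint fit. The alternatives were other added constants, other filters, limma without trend and robust settings, sample weights, a joint fit over the 4 groups, each tumour left out in turn and, for siRNA 2, Scr2 replicates 1 and 4 left out together. Over all genes 1 was called with siRNA 1 at a minimum of 5 CPM, and 2 were called with siRNA 2 without Scr2 replicates 1 and 4. With 1 tumour left out the number called was 0 to 2 with siRNA 1 and 0 to 9 with siRNA 2. For the mean of both effects it was 0, against 0 to 1 with 1 tumour left out. In all 74 values of single genes changed sign, 55 of them with 1 tumour left out, and the cause was not tested. With sample weights the sign changed with siRNA 1 for CDK6 (-0.022), ORC6 (-0.060), PRIM1 (-0.032) and SLBP (-0.0050) and with siRNA 2 for CDK6 (-0.053), MCM4 (-0.12), ORC6 (0.029), POLD1 (-0.061), POLE (-0.11) and UHRF1 (-0.022). Without Scr2 replicates 1 and 4 it changed for CDK2 (-0.053), CDK6 (-0.098), MCM4 (-0.21), ORC6 (0.14), POLD1 (-0.14), POLE (-0.31), RB1 (-0.17), RFC2 (0.081) and UHRF1 (-0.13). With 1 tumour left out the lowest and highest values of genes that changed sign with siRNA 1 were -0.37 and 0.25 for CCNE2, -0.22 and 0.12 for CDC6, -0.13 and 0.15 for CDK6, -0.52 and 0.029 for CDT1, -0.27 and 0.14 for DTL, -0.44 and 0.054 for MCM10, -0.39 and 0.014 for MCM4, -0.17 and 0.22 for ORC6, -0.36 and 0.15 for PCNA, -0.10 and 0.13 for POLA1, -0.093 and 0.33 for PRIM1, -0.13 and 0.36 for RB1, -0.39 and 0.14 for RFC3, -0.21 and 0.064 for RFC4, -0.19 and 0.043 for RFC5, -0.13 and 0.018 for RPA1, -0.068 and 0.15 for RPA2, and -0.069 and 0.26 for SLBP. With siRNA 2 they were -0.078 and 0.11 for CDK2, -0.022 and 0.38 for CDK6, -0.12 and 0.10 for MCM4, -0.19 and 0.15 for ORC6, -0.067 and 0.29 for POLD1, and -0.026 and 0.32 for POLE. Sums over rows of a repeated symbol were not run, because no symbol among the 42 repeats. No paired analysis was possible because the labels give no replicate numbers, and the numbers used here follow accession order. With 3 against 4 tumours the smallest exact permutation p is 0.0286, and with 5 against 4 it is 0.00794. Depth limits the low genes most in Scr1 replicate 3, where 8.81% of genes sit at the lowest value.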
